A study of Mus musculus with 6 samples.

Results

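The genes described are 10 serotonin receptor genes, *Htr1a*, *Htr1b*, *Htr1d*, *Htr1f*, *Htr2a*, *Htr2c*, *Htr3a*, *Htr4*, *Htr6* and *Htr7*, chosen by gene name from the 52390 genes of a mouse brain RNA-seq count table. The rule of choice used no measured value, but earlier results of these data were known when it was made. All 10 were among the 21844 genes with enough counts to be tested. RNA was sequenced from 3 control mice and 3 mice overexpressing *AP1AR-DT* (also named AC109347.1), a human long non-coding RNA linked by the study to bipolar disorder. The labels give the genotype of the former as wild type and of the latter as AC109347.1 overexpressed. All were male C57BL/6 mice whose medial prefrontal cortex (mPFC) was injected with a recombinant adeno-associated virus (AAV) at 8 weeks of age. In *AP1AR-DT* OE mice the insert of the virus was driven by the neuronal human synapsin I promoter, and control mice received an empty vector. The labels name brain as the tissue, while the study speaks of the mPFC and of cortical tissue. The study names an EGFP reporter under the CMV promoter in the vector. *AP1AR-DT* is not a mouse gene, so no row of the table checks the overexpression.

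Serotonin is released across the forebrain by neurons of the raphe nuclei and acts on a family of receptors that is a main target of antidepressant, antipsychotic and migraine drugs. The type 1 and type 5 receptors couple to Gi/o proteins and lower cyclic AMP, the type 2 receptors couple to Gq and phospholipase C, and the type 4, 6 and 7 receptors couple to Gs and raise cyclic AMP. The type 3 receptor is a ligand-gated ion channel. The levels of these genes differ strongly between brain regions and cell types, so the makeup of the dissected tissue bears on their bulk counts. In bulk RNA, fewer cells of a type and less RNA per cell cannot be told apart.

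The promoters of the 3 receptor genes with the highest levels per kb of exon are shown because they differ in their density of CpG dinucleotides, the letters in capitals. Each runs 5′ to 3′ on the gene's strand from 250 bases before to 50 bases after the RefSeq start in GRCm38.p6, which is chrX:146962263-146962562 for *Htr2c*, chr13:105443443-105443742 for *Htr1a* and chr19:36057311-36057610 for *Htr7*.
Htr2c: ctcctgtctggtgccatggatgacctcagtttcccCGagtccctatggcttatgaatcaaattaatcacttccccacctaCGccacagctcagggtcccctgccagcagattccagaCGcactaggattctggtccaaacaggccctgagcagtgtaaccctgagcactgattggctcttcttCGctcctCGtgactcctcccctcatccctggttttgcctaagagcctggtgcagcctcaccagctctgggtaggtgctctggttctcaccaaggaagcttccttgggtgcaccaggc
Htr1a: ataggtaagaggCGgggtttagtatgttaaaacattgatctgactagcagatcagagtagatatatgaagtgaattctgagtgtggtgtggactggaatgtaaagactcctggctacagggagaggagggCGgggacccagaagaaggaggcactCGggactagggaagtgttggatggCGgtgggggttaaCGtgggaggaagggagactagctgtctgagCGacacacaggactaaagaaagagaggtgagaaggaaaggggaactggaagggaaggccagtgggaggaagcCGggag
Htr7: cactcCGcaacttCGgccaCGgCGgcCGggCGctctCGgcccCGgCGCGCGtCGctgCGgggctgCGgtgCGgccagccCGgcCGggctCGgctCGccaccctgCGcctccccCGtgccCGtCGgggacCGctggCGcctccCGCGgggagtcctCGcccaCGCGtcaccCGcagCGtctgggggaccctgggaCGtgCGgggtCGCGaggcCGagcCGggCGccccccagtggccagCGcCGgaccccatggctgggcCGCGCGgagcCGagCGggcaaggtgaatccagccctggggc
The *Htr2c* sequence holds 5 CpGs, that of *Htr1a* 7 and that of *Htr7* 46, where the median of 32851 mouse promoters of the same length is 7. *Htr7* thus has more CpGs than 98.4% of all these promoters have. Start sites were found for 8 of the 10 genes, with 10 promoters in all, since *Htr1d* and *Htr6* have a pair each. On both strands, the letters TGCGCA, part of the motif of the factor NRF1, occurred in 1 of the 10 promoters, at *Htr6*, and in 7.76% of all promoters. TATAAA occurred in 0 of the 10 and in 13.6% of all, and the cyclic AMP response element TGACGTCA in 0 of the 10 and in 1.79% of all. These are matches of letters in a window and not measured binding sites.

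By the GENCODE vM21 annotation of the mouse genome build GRCm38, all 10 are protein-coding. On the plus strand lie *Htr1a* (chromosome 13, 105443639 to 105448122), *Htr1d* (chromosome 4, 136423524 to 136444398), *Htr2a* (chromosome 14, 74640840 to 74709494), *Htr2c* (chromosome X, 146962513 to 147197277) and *Htr4* (chromosome 18, 62324204 to 62496577). On the minus strand lie *Htr1b* (chromosome 9, 81628291 to 81633828), *Htr1f* (chromosome 16, 64924729 to 65105854), *Htr3a* (chromosome 9, 48899213 to 48911099), *Htr6* (chromosome 4, 139061108 to 139075570) and *Htr7* (chromosome 19, 35958734 to 36057507). *Htr1a* has a single exon, and *Htr4* has the most exons of the 10 after overlapping exons are merged. The exons of *Htr1b* overlap those of *D430036J16Rik*, on the opposite strand, by 852 bases. Use of strand in the counting is not stated in the sources used here, so reads from that stretch cannot be told apart, and *D430036J16Rik* itself had 1.34 to 4.65 normalized CPM, the depth-scaled unit of counts that edgeR gives with its TMM factors. The untested *Htr2b*, described with the other receptor genes, likewise overlaps *Psmd1* on the opposite strand by 252 bases. None of the 10 shares a stretch of 100 bases of its longest transcript with a transcript of another gene.

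The 6 libraries held 42061721 to 54668294 counts, and the spread between mice corresponded to a common coefficient of biological variation of 0.313. The libraries are called control 1 to 3 and OE A to C, the latter in the order of their columns. Markers of brain regions stood apart in single libraries. The sum of 10 choroid plexus markers was 4033 normalized CPM in control 3 and between 53.0 and 76.0 in the other 5 libraries. *Kcnj13* and *Slc4a5*, both typical of choroid plexus, were at 0 in controls 1 and 2 and in OE A. The sum of 11 hypothalamic markers was 665 in control 2 and between 35.6 and 105 elsewhere. *Oxt*, *Avp* and *Trh*, at 281, 184 and 121, had the highest values of this list in control 2. Not every member peaked there, since *Hcrt* and *Pmch* were highest in control 3, at 11.3 and 19.2, beside 3.01 and 1.22 in control 2. The sum of 12 markers of cortical excitatory neurons ranged from 351 to 955 in controls and from 605 to 1476 in OE libraries. Within it *Neurod6* was at 0.080 in control 2 and 0.572 in OE C and reached 23.0 in control 3. *Neurod2* was also low in control 2 and OE C, at 0.281 and 0.896. Other markers of the list were present in these same libraries, with *Nrgn* at 208 and 315 and *Cux2* at 33.2 and 42.8. The part of these differences in the results was not tested.

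Of the 10 receptor genes, 0 passed the thresholds for differential expression. The thresholds were those of the study, an unadjusted *P* under 0.05 and |Log2FC| above 0.32, tested with edgeR's quasi-likelihood test, where Log2FC is the log2 fold change of *AP1AR-DT* OE over control mice. At these thresholds 12.2% of all genes tested were differentially expressed genes (DEGs), 5.1% higher and 7.15% lower in *AP1AR-DT* OE mice. The count of receptor genes with *P* under 0.05 at any fold change was 0 by edgeR, by DESeq2 and by limma-voom. After Benjamini-Hochberg adjustment over all genes tested, edgeR's *P* lay between 0.381 for *Htr2c* and 0.965 for *Htr1f*, and 0.0275% of all genes had an adjusted *P* under 0.05. The groups overlapped in all 10 genes, whereas all 3 OE libraries were above all 3 controls in 10.4% of the genes tested and below them in 12% of them. Log2FC was positive for 6 and negative for 4 receptor genes, with a median of 0.17 beside -0.01 over all genes tested. The standard errors had a median of 0.32, beside 0.20 over all genes. The 95% intervals given with each gene show which sizes of change these 6 libraries cannot separate from 0.

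**Figure D1:**
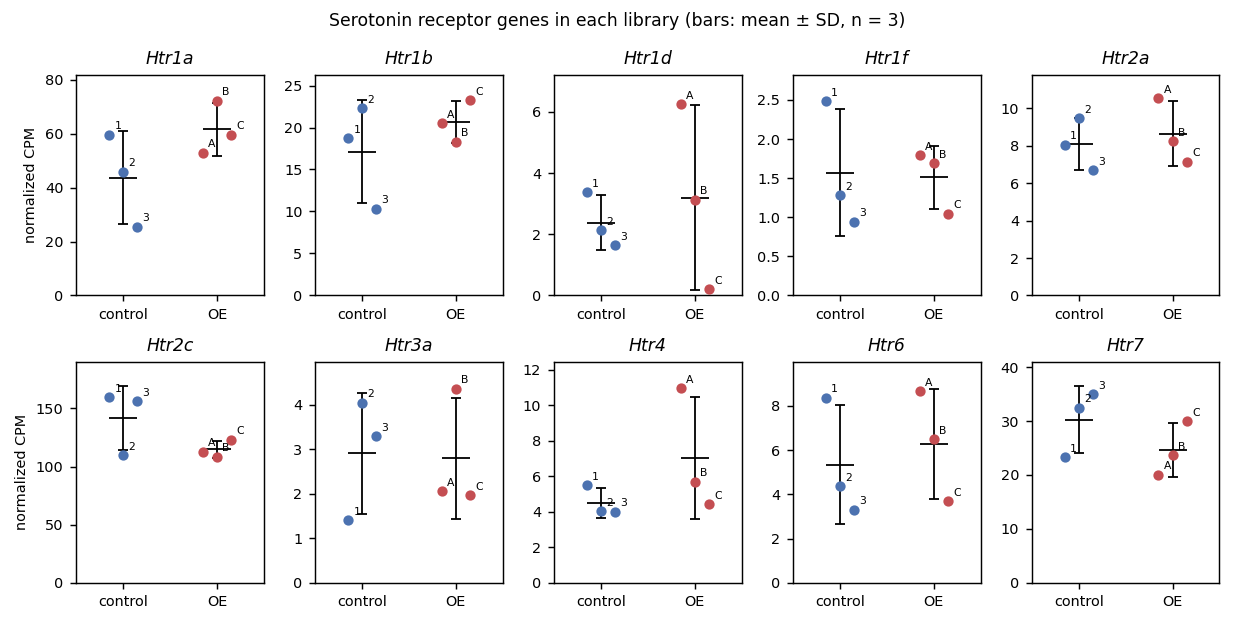
Normalized CPM of the 10 serotonin receptor genes in each library, with control mice 1 to 3 in blue and *AP1AR-DT* OE libraries A to C in red, on axes that start at 0. Black bars are the mean ± SD of 3 libraries, and the groups overlap in every panel.

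Among the Gi/o-coupled type 1 receptors, *Htr1a* had the highest level. It encodes the receptor that serves as the autoreceptor on the cell bodies of raphe neurons and as an inhibitory receptor on cortical and hippocampal neurons. Its normalized CPM were 59.7, 45.9 and 25.5 in controls 1 to 3 and 52.9, 72.2 and 59.7 in OE A to C. The lowest value was that of control 3, and control 1 lay within the range of the OE libraries. The mean was 43.7 ± 17.2 in control and 61.6 ± 9.78 in *AP1AR-DT* OE mice (SD, n = 3 each). Log2FC was 0.50 (standard error 0.29) with a 95% interval from -0.19 to 1.19 (edgeR's quasi-likelihood test, *P* = 0.133, adjusted *P* = 0.442, exact permutation *P* = 0.2). The exact permutation test is two-sided, and the smallest *P* that 3 mice against 3 allow is 0.1. Without control 1, Log2FC was 0.79 and edgeR's *P* was 0.0279, which is past the thresholds, and without control 3 it was 0.24. Its adjusted *P* lay between 0.266 and 0.770 over all 15 fits made.

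*Htr1b* encodes a receptor on axon terminals, where it holds back the release of serotonin and other transmitters. It had 18.7, 22.3 and 10.3 normalized CPM in controls 1 to 3 and 20.5, 18.3 and 23.3 in OE A to C. As with *Htr1a*, control 3 was the lowest library, while controls 1 and 2 lay among the OE values. Log2FC was 0.27 with a 95% interval from -0.37 to 0.92 (edgeR's *P* = 0.347, adjusted *P* = 0.650, exact permutation *P* = 0.5), and it was 0.03 without control 3.

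*Htr1d*, a close relative of *Htr1b* and a target of the triptan migraine drugs, was the most uneven of the 10 receptor genes. It had 3.37, 2.13 and 1.64 normalized CPM in controls and 6.26, 3.13 and 0.210 in OE A to C. The values in OE A and OE C, from 332 and 11 counts, were the highest and the lowest of all 6 libraries and differed 29.9-fold. For each of the other 9 genes the highest library was at most 3.11 times the lowest. Log2FC was 0.43 (standard error 0.92) with a 95% interval from -1.73 to 2.59 (edgeR's *P* = 0.653, adjusted *P* = 0.847, exact permutation *P* = 0.9). It was 1.00 without OE C (edgeR's adjusted *P* = 0.298) and -0.50 without OE A (edgeR's adjusted *P* = 0.886), so its direction turned when OE A alone was left out. Over all 15 fits its adjusted *P* lay between 0.298 and 0.938, and limma-voom gave a negative Log2FC of -0.45.

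*Htr1f*, another Gi/o-coupled receptor and a target of the migraine drug lasmiditan, had 2.48, 1.29 and 0.941 normalized CPM in controls and 1.79, 1.69 and 1.05 in OE A to C. The control libraries span the OE range on both sides. Log2FC was -0.05 with a 95% interval from -1.07 to 0.96 (edgeR's *P* = 0.907, adjusted *P* = 0.965, exact permutation *P* = 1). It was 0.44 without control 1 and -0.30 without control 3.

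Of the Gq-coupled type 2 receptors, *Htr2c* was the most abundant receptor gene by counts, with 5475 to 7807 counts per library. It encodes a receptor of neurons and of the choroid plexus epithelium, and its transcript is edited by the ADAR enzymes. Its normalized CPM were 160, 110 and 156 in controls 1 to 3 and 113, 108 and 123 in OE A to C. Controls 1 and 3 were above every OE library, and control 2 lay between OE A and OE B. Log2FC was -0.31 (standard error 0.15) with a 95% interval from -0.67 to 0.05 (edgeR's *P* = 0.0840, exact permutation *P* = 0.3, adjusted *P* = 0.381). Without control 2 it was -0.45 and edgeR's *P* was 0.00352, past the thresholds, but the adjusted *P* of that fit was 0.449, within a range from 0.324 to 0.862 over all 15 fits. After correction of each library for a smooth curve of counts on GC content, Log2FC was -0.10. The transcripts of *Htr2c* have a GC content of 42.1%. The summed choroid plexus markers were at 76.0, 68.0 and 4033 normalized CPM in controls 1 to 3, and their part in the *Htr2c* values was not tested. Leaving out control 3 moved the Log2FC of *Htr2c* to -0.22 (edgeR's adjusted *P* = 0.584), and leaving out control 1 instead moved it to -0.21 (edgeR's adjusted *P* = 0.546).

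*Htr2a*, the receptor through which classical psychedelic drugs act on cortical neurons, had 8.06, 9.48 and 6.71 normalized CPM in controls and 10.5, 8.24 and 7.15 in OE A to C. Its highest library was 1.57 times its lowest, the smallest such ratio after the 1.47 of *Htr2c*, and the groups overlapped almost entirely. Log2FC was 0.10 with a 95% interval from -0.39 to 0.58 (edgeR's *P* = 0.654, adjusted *P* = 0.847, exact permutation *P* = 0.7). After the correction for GC content, which is 41.3% in *Htr2a*, it was 0.34, still short of the thresholds.

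*Htr3a* encodes the subunit that forms the serotonin-gated ion channel and marks a class of cortical interneurons. It had 1.40, 4.04 and 3.28 normalized CPM in controls and 2.06, 4.36 and 1.96 in OE A to C, from 57 to 235 counts. Control 1 was the lowest library and OE B the highest, and the group means of 2.91 ± 1.36 (SD, n = 3) and 2.79 ± 1.36 (SD, n = 3) were nearly equal. Log2FC was -0.06 with a 95% interval from -1.18 to 1.06 (edgeR's *P* = 0.902, adjusted *P* = 0.963, exact permutation *P* = 1), an interval that is wide in both directions. The sum of 12 interneuron markers, of which *Gad1* and *Gad2* had the highest levels, lay between 1187 and 1566 over the 6 libraries. By edgeR 2 of the 12, or 16.7%, were DEGs, beside 12.2% of all genes (*Npy* higher, Log2FC 0.82, and *Prox1* lower, Log2FC -1.89). At an unadjusted *P* under 0.05 the count was 3 by DESeq2 and 1 by limma-voom. Single markers varied more, with *Prox1* between 11.3 in OE C and 93.3 in control 3, *Cck* between 8.87 in control 1 and 129 in control 3, and *Vip* at 0.705 in OE C, 5.36 in OE B and 13.4 in control 2. Their part in the values of *Htr3a* was not tested.

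Among the Gs-coupled receptors, *Htr4* had the largest Log2FC of the 10 genes in the fit of all 6 libraries. It encodes a receptor that raises cyclic AMP in neurons of the striatum, hippocampus and cortex. Its normalized CPM were 5.48, 4.02 and 4.00 in controls and 10.9, 5.69 and 4.42 in OE A to C. OE A stood far above the other 5 libraries, OE B was slightly above the highest control, and OE C lay within the controls. Log2FC was 0.64 (standard error 0.35) with a 95% interval from -0.19 to 1.47 (edgeR's *P* = 0.110, adjusted *P* = 0.418, exact permutation *P* = 0.2). It was 0.17 without OE A and 0.90 without OE C, where edgeR's *P* was 0.0326 and the adjusted *P* was 0.254, the lowest of a range that reached 0.846 over all 15 fits.

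*Htr6*, which is most abundant in the striatum, had 8.38, 4.36 and 3.30 normalized CPM in controls and 8.67, 6.49 and 3.70 in OE A to C. Control 1 and OE A were high and about equal, and control 3 and OE C were the lowest. Log2FC was 0.24 with a 95% interval from -0.77 to 1.24 (edgeR's *P* = 0.597, adjusted *P* = 0.818, exact permutation *P* = 0.7). After the correction for GC content, which at 63.1% was the highest of the 10 genes, it was -0.09.

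*Htr7*, known for its expression in thalamus, hypothalamus and hippocampus, had 23.3, 32.5 and 35.0 normalized CPM in controls and 20.04, 23.7 and 30.0 in OE A to C. Controls 2 and 3 were above every OE library, and control 1 lay between OE A and OE B. Log2FC was -0.30 (standard error 0.20) with a 95% interval from -0.78 to 0.18 (edgeR's *P* = 0.184, exact permutation *P* = 0.3, adjusted *P* = 0.500). It was -0.46 without control 1, where edgeR's *P* was 0.0479 and the adjusted *P* was 0.301, the lowest of a range that reached 0.819 over all 15 fits. It was -0.31 after the correction for GC content.

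**Figure D2:**
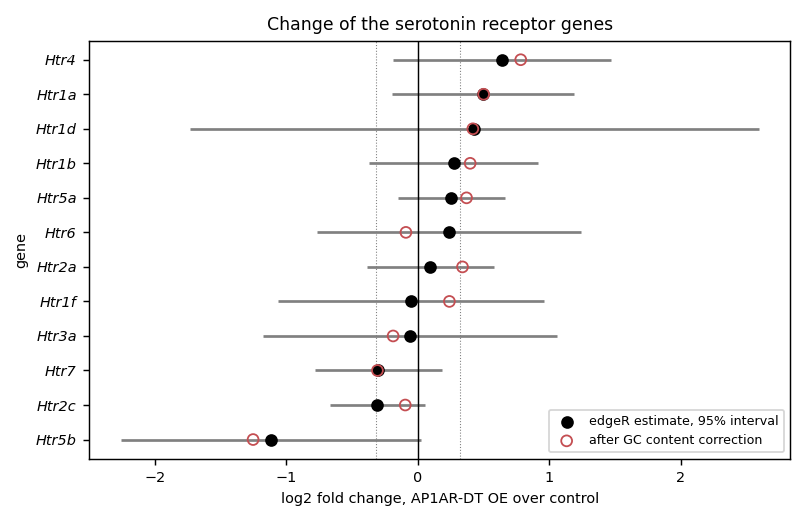
Log2 fold change of *AP1AR-DT* OE over control mice for the 12 serotonin receptor genes tested, as points with 95% intervals from edgeR, and after correction for GC content as open red circles. Dotted lines mark the fold change threshold of 0.32 in each direction, and every interval includes 0.

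**Figure D3:**
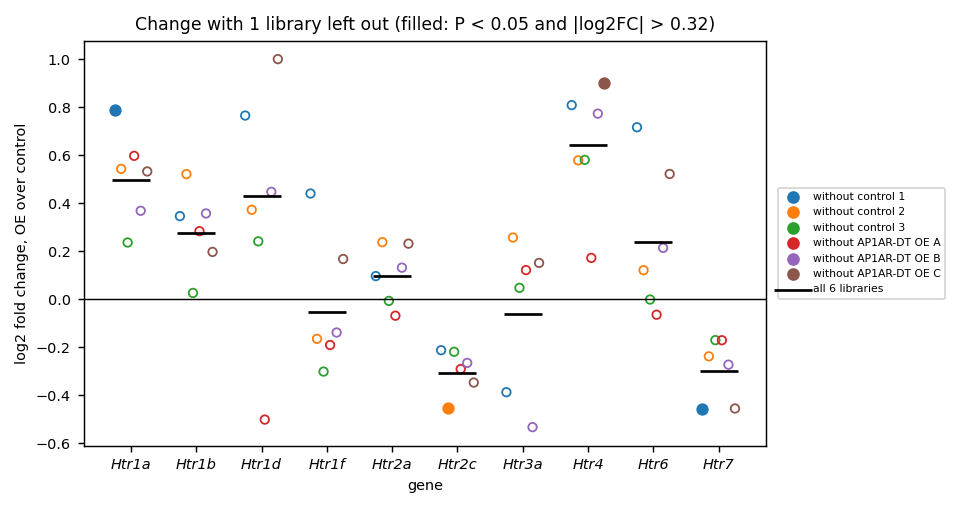
Log2 fold change of the 10 receptor genes with each library left out in turn (coloured circles) and with all 6 libraries (black bars). Filled circles pass *P* under 0.05 and |Log2FC| above 0.32, which occurs for *Htr1a* and *Htr7* without control 1, *Htr2c* without control 2 and *Htr4* without OE C.

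Each of the 4 receptor genes that passed the thresholds in any fit did so in 1 of the 15 fits, and in each case by leaving out the library of a group that lay nearest to the other group. Without control 3, the library with the choroid plexus markers, 0 of the 10 passed. The adjusted *P* of all 10 genes stayed above 0.05 in every one of these fits.

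Levels of different genes were compared as normalized CPM per kb of merged exons, which is a level and not a difference. In control mice the order was *Htr2c* (15.2 ± 2.98 (SD, n = 3)), *Htr1a* (9.75 ± 3.83), *Htr7* (8.90 ± 1.82), *Htr1b* (3.62 ± 1.30), *Htr6*, *Htr2a*, *Htr3a*, *Htr4*, *Htr1d* and *Htr1f* (0.609 ± 0.314). The ranges of neighbours overlapped at every step of this order except between *Htr7* and *Htr1b*. In *AP1AR-DT* OE mice *Htr1a* came first with 13.7 ± 2.18 per kb (SD, n = 3), followed by *Htr2c* with 12.3 ± 0.823, *Htr7* with 7.23 ± 1.48 and *Htr1b* with 4.38 ± 0.528. There the steps from *Htr2c* to *Htr7*, from *Htr7* to *Htr1b* and from *Htr1b* to *Htr6* had no overlap, whereas *Htr1a* and *Htr2c* overlapped. *Htr4* and *Htr3a* also changed places between the groups, with ranges that overlapped in both. Summed over the 10 genes, the level per kb was 40.8 to 50.1 in control libraries and 45.5 to 47.7 in OE libraries. *Htr1a* took 14.0% to 26.6% of this sum in control and 25.9% to 33.8% in OE libraries, and *Htr2c* took 26.9% to 41.1% in control and 24.4% to 29.1% in OE libraries, so the groups overlapped in both. The exons of *Htr2c* merge several transcripts to 9328 bases, against 4883 in its longest transcript, and with the longest transcript as the length *Htr2c* was first in both groups.

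**Figure D4:**
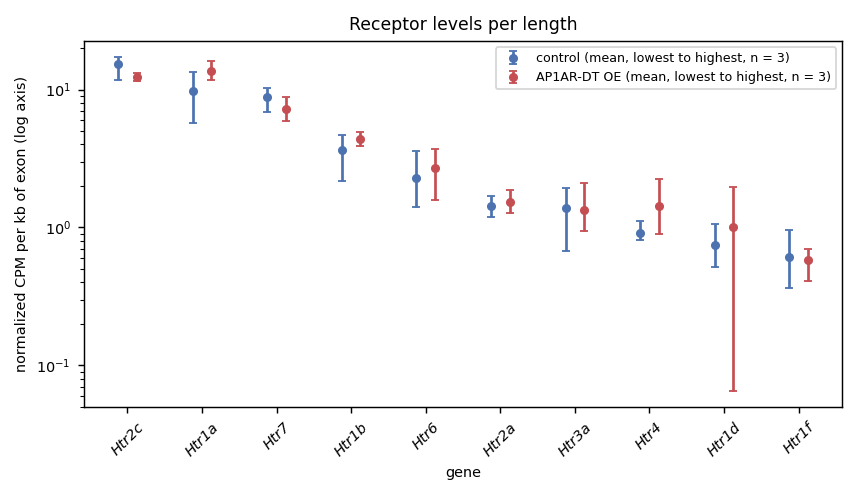
Level of each receptor gene in normalized CPM per kb of merged exons on a log axis, with control mice in blue and *AP1AR-DT* OE mice in red. Points are means of 3 libraries and bars run from the lowest to the highest library, and *Htr1d* in OE mice has the widest bar.

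The order of the libraries differed between the receptor genes, also within a group. *Htr1d*, *Htr2a*, *Htr4* and *Htr6* were highest in OE A. The sum of 10 markers of striatal projection neurons was also highest in OE A, at 2013 normalized CPM, with 1217 in control 1 and 359 to 802 in the other 4 libraries. All 10 of these striatal markers had a positive Log2FC, between 0.52 and 1.41, but 0 had *P* under 0.05 by edgeR, DESeq2 or limma-voom, and the groups overlapped in all of them. *Htr6* and *Htr1d* shared with this list the places of OE A and control 1 as the highest and the next. The order of the libraries for *Htr7*, from control 3 and control 2 down through OE C, OE B and control 1 to OE A, was that of the sum of 8 thalamic markers. That sum ran from 681 in control 3 to 118 in OE A. The sum of 8 oligodendrocyte markers had the same order except that control 1 and OE A changed places. These likenesses of order were picked from many genes and lists. Of the 8 thalamic markers, which all had a negative Log2FC, 1 was a DEG (12.2% of all genes were). *Slc17a6*, which encodes the vesicular glutamate transporter of thalamic and other subcortical neurons, was that one and ranged from 14.9 in OE B to 216 in control 3. Each of the 8 was highest in control 3, so their shared direction leans on that library. *Tcf7l2* was at 134 there and at 9.76 and 9.80 in controls 1 and 2, below the 10.7 to 11.2 of the OE libraries. *Slc17a6*, by contrast, was at 80.8 in control 2, above every OE library. *Htr1a*, *Htr1b*, *Htr1f*, *Htr2a*, *Htr4* and *Htr6* were lowest in control 3, the library with the high choroid plexus and thalamic sums. Of the 8 choroid plexus markers tested, 6 were DEGs by edgeR, all lower in *AP1AR-DT* OE mice, beside 12.2% of all genes. *P* was under 0.05 for 2 of the 8 by DESeq2 and for 0 by limma-voom. The groups did not overlap in 1 of the 8, and all 3 OE libraries were below all 3 controls in 12% of all genes tested. The part of the tissue makeup in these differences was not tested.

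**Figure D5:**
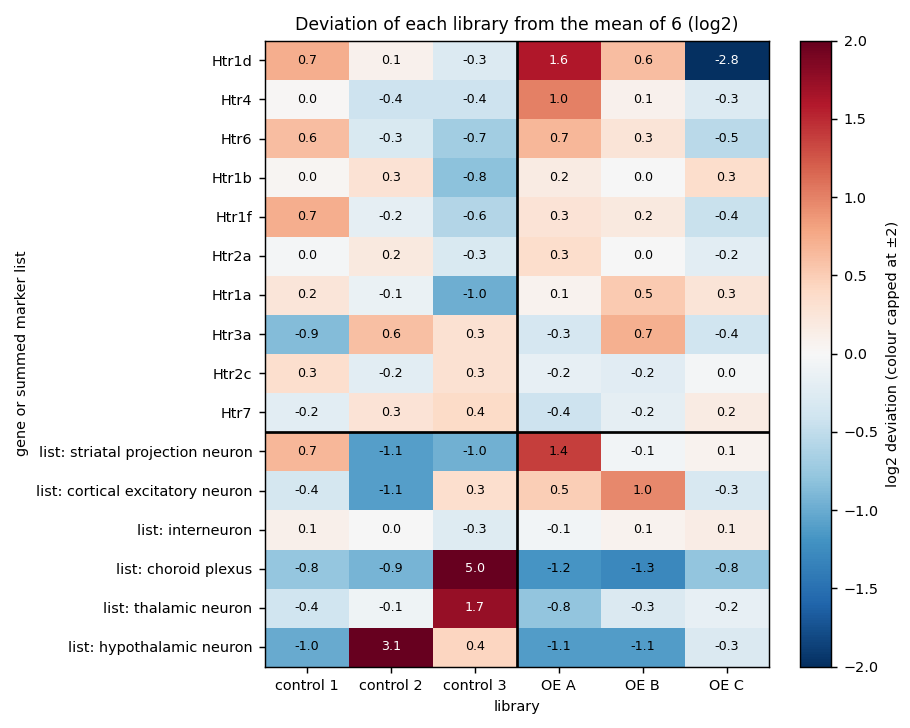
Deviation of each library from the mean of the 6 libraries, in log2 of normalized CPM plus 0.1, for the 10 receptor genes (top) and for summed lists of marker genes (bottom). Control 3 stands out in the choroid plexus list at 5.0 and control 2 in the hypothalamic list at 3.1, and the lowest receptor value is -2.8 for *Htr1d* in OE C.

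For each receptor gene the genes with the most similar profile over the 6 libraries were taken by the root mean square difference of centred log2 values, among 16000 genes. The closest to *Htr2c* were *Gm2058* (0.036) and *Gm3888* (0.061). Those closest to *Htr7* were *Mast4* (0.052) and *Nectin3* (0.068), and those closest to *Htr1a* were *Rspo4* (0.053) and *Sema3g* (0.101). *Htr2a* was followed most closely by *Chrac1* (0.073) and *Ssr4* (0.074), *Htr1b* by *Smyd1* (0.097) and *Selenov* (0.098), and *Htr4* by *Lingo3* (0.121) and *Rasgrp2* (0.147). *Htr1f* was followed by *Gm3348* (0.136), *Htr6* by *D330050I16Rik* (0.136) and *Glt8d2* (0.139), and *Htr3a* by *Utp11* (0.200) and *C1qtnf1* (0.245). The uneven *Htr1d* had no close neighbour, with *Fam110b* at 0.418 and *Sar1a* at 0.562. These likenesses rest on 6 libraries and a search of many genes, and they are given as a description.

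Of the 4 receptor genes outside the 10, *Htr5a* and *Htr5b* were tested. *Htr5b*, a mouse receptor gene known from the habenula and hippocampus, had 2.70, 5.78 and 8.99 normalized CPM in controls and 1.51, 3.06 and 3.51 in OE A to C. Controls 2 and 3 were above every OE library, and control 1 lay between OE A and OE B. This library order was that of *Htr7* and of the sum of the thalamic markers, while single thalamic markers such as *Tcf7l2* had other orders. Log2FC was -1.11 with a 95% interval from -2.26 to 0.03 (edgeR's *P* = 0.0542, adjusted *P* = 0.338, exact permutation *P* = 0.3). It passed the thresholds with DESeq2, after the correction for GC content (-1.25), after the correction for transcript length (-1.17) and without control 1 (-1.45, edgeR's adjusted *P* = 0.236), and it was -0.65 without control 3. Its adjusted *P* lay between 0.171 and 0.661 over all 15 fits. *Htr5a*, a Gi/o-coupled receptor of cortical neurons, had 15.2, 14.9 and 11.1 normalized CPM in controls and 13.9, 18.0 and 17.2 in OE A to C, a Log2FC of 0.25 (edgeR's *P* = 0.183, adjusted *P* = 0.499, exact permutation *P* = 0.3). *Htr2b* had 0 to 7 counts per library. *Htr3b*, the partner subunit of *Htr3a*, had 0, 5 and 7 counts in controls and 0 in each OE library.

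Genes of serotonin synthesis, transport and breakdown were low where they mark the cell bodies of serotonergic neurons, which lie in the raphe nuclei. *Tph2*, the rate-limiting enzyme of serotonin synthesis in neurons, had 0.295 to 0.783 normalized CPM in controls and 0.343 to 0.396 in OE libraries. *Slc6a4*, the serotonin transporter, *Fev*, a transcription factor of serotonergic neurons, and *Tph1*, the synthesis enzyme of peripheral tissue, were too low to be tested. Of the 9 other genes of this list of 12, 0 were DEGs by edgeR, beside 12.2% of all genes. At an unadjusted *P* under 0.05 the count was 0 by edgeR, 0 by limma-voom and 1 by DESeq2, which gave *Maob* a *P* of 0.0365. Log2FC was negative for 8 of the 9, with a median of -0.35, while it was at or below 0 for 11260 of all 21844 genes tested. *Maob*, the monoamine oxidase of glia and serotonergic neurons, had 57.6 normalized CPM in control 3 and 22.7 to 29.4 in the other 5 libraries, a Log2FC of -0.64 (edgeR's *P* = 0.0832, adjusted *P* = 0.379, exact permutation *P* = 0.4). *Slc29a4*, a low-affinity monoamine transporter also found in choroid plexus, was likewise highest in control 3 at 53.8, against 19.4 to 26.9 elsewhere. Its Log2FC was -0.35 with all libraries and 0.33 without control 3, where its direction was reversed and edgeR's unadjusted *P* was 0.0481. *Ddc*, the decarboxylase shared by serotonin and dopamine synthesis, was highest in control 2 at 19.2, against 5.32 to 8.21 elsewhere, a Log2FC of -0.70 (edgeR's *P* = 0.134, adjusted *P* = 0.443, exact permutation *P* = 0.4). *Slc18a2*, the vesicular monoamine transporter, had a Log2FC of -0.40, *Maoa* of -0.29, *Gch1*, of cofactor synthesis, of -0.24, *Aldh2* of -0.06 and the transporter *Slc22a3* of 0.02. With a library left out, *Ddc* and *Maoa* passed the thresholds without control 1, *Maob* without control 2, *Slc29a4* without control 3 and *Slc18a2* without OE C. The adjusted *P* of each stayed above 0.05 in all 15 fits.

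Over the 6 lists of other receptor, supply, signalling and partner genes together, 10 of the 65 genes tested were DEGs, 15.4% beside 12.2% of all genes, 6 higher and 4 lower in *AP1AR-DT* OE mice. The median Log2FC over them was -0.04. It was 0.01 for the Gi/o, 0.16 for the Gs, 0.05 for the Gq and 0.14 for the partner list, beside -0.01 over all genes tested. By edgeR and by limma-voom 0 of them had an adjusted *P* under 0.05, and by DESeq2 *Pde4a* alone did. Among 13 genes of Gi/o signalling, *Kcnj3* was the 1 DEG by edgeR, and DESeq2 also passed the adenylyl cyclase *Adcy5* (Log2FC 0.57). *Kcnj3* encodes a subunit of the potassium channel that Gi/o-coupled receptors open, and fell from 66.1 ± 17.7 to 26.4 ± 15.7 normalized CPM (SD, n = 3 each), a Log2FC of -1.32 (edgeR's *P* = 0.0144, adjusted *P* = 0.295, exact permutation *P* = 0.1). All 3 OE libraries, with 44.3, 14.6 and 20.4 in OE A to C, were below the lowest control of 55.1. Without OE C edgeR's *P* was 0.0568.

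Among 15 genes of Gs signalling, *Pde4a* and *Adcy9* rose and *Creb1* fell, with no overlap between the groups in any of the 3. Over all genes tested 12.2% were DEGs, and the groups did not overlap in 10.4% (higher) and 12% (lower). *Pde4a*, a phosphodiesterase that breaks down cyclic AMP, had a Log2FC of 0.59 (edgeR's *P* = 0.00506, adjusted *P* = 0.295, exact permutation *P* = 0.1). *Adcy9*, an adenylyl cyclase, had a Log2FC of 0.40 (edgeR's *P* = 0.0139, adjusted *P* = 0.295, exact permutation *P* = 0.1), and *Creb1*, the transcription factor activated by cyclic AMP signalling, had a Log2FC of -0.53 (edgeR's *P* = 0.00789, adjusted *P* = 0.295, exact permutation *P* = 0.1). After the correction for GC content *Creb1* was at -0.24 and *Adcy9* at 0.22, and neither passed the thresholds, nor did *Adcy9* without OE B. Among 12 genes of Gq signalling, the phospholipase *Plcb4* fell (Log2FC -0.98, edgeR's *P* = 0.0288, adjusted *P* = 0.300, exact permutation *P* = 0.2) and the diacylglycerol kinase *Dgkz* rose (0.69, edgeR's *P* = 0.0430, adjusted *P* = 0.321, exact permutation *P* = 0.3). *Plcb4* was highest in control 3, at 88.6 normalized CPM, and it missed the thresholds without that library (Log2FC -0.54), OE A or OE B. *Dgkz* missed them without control 1, control 2, OE A or OE B, and it was at 0.44 after the correction for GC content and no longer passed them.

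Of 14 genes listed as receptor partners or editing enzymes, 4 were DEGs by edgeR (12.2% of all genes were). The groups did not overlap in any of these 4 except *Dlg4*. The list also holds *Jakmip1*, for which binding to a serotonin receptor is not established here. Over all genes tested the groups did not overlap in 10.4% (higher) and 12% (lower). *S100a10*, which encodes p11, a binding partner of the *Htr1b* and *Htr4* receptors, had a Log2FC of 0.48 (edgeR's *P* = 0.0239, adjusted *P* = 0.296, exact permutation *P* = 0.1). *Mpdz*, a scaffold protein that binds the *Htr2c* receptor, had a Log2FC of -0.68 (edgeR's *P* = 0.00943, adjusted *P* = 0.295, exact permutation *P* = 0.1), *Dlg4*, the synaptic scaffold PSD-95, of 0.34 (edgeR's *P* = 0.0340, adjusted *P* = 0.309, exact permutation *P* = 0.2) and *Jakmip1*, a microtubule-binding protein, of 0.57 (edgeR's *P* = 0.0257, adjusted *P* = 0.296, exact permutation *P* = 0.1). The adjusted *P* of these 4 genes lay between 0.295 and 0.309. *Jakmip1* was at 0.38 after the correction for GC content and no longer passed the thresholds. *S100a10* missed the thresholds without control 1, control 3 or OE B, *Jakmip1* without OE A or OE B, and *Dlg4* without control 2, control 3, OE A or OE B, whereas *Mpdz* passed them in all 15 fits. *Adar* and *Adarb1*, the enzymes that edit *Htr2c* transcripts, had Log2FC of 0.14 and -0.21 and did not pass the thresholds, and gene counts do not show the editing itself.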

How the data were processed

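RNA of 6 mouse brains (3 control, 3 *AP1AR-DT* OE) was sequenced by the authors, who mapped the reads to GRCm38 with Bowtie2 and took gene counts from the coverage that StringTie computed. The counts were deposited by the authors as whole numbers without normalization. Bowtie2 does not split reads at introns, and counts made from coverage need not equal the number of read pairs. The submitters' processing notes instead list TopHat2 2.0.4, HTSeq, Cuffdiff, edgeR 2.6.12 and the build mm9, and this difference was not resolved. The table also holds mean normalized counts, fold changes, standard errors, test statistics and *P*-values of the authors' DESeq2 comparison, which were not used.

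Groups were taken from the sample labels. The OE columns are numbered 1 to 3 and the mice 3 to 5, so these libraries carry letters. The labels do not say how the tissue was dissected.

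Counts were normalized by TMM and tested in R 4.3.3 with edgeR 4.0.16 (filterByExpr, quasi-likelihood F-test, two-sided, all 6 libraries, no covariate, Benjamini-Hochberg adjustment over 21844 genes). Standard errors are |Log2FC| over the square root of F. Exact permutation tests used log2(normalized CPM + 0.1). Alternatives were DESeq2 1.42.0, limma-voom (limma 3.58.1), DESeq2's size factors, library totals, no filter, at least 10 counts in every library, GC content and transcript length curves (splines with 5 degrees of freedom) and leaving out each library. The scripts were tested on simulated data. Tables and figures were made with Python 3.11.15, pandas 2.3.3, scipy 1.17.1 and matplotlib 3.10.9. Exon lengths and loci are from GENCODE vM21, promoters from RefSeq. Library totals were 42061721 to 54668294 counts, and the precision of each gene is given by its standard error.

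The members and gene lists were chosen with earlier results of these data known. Genes named are all receptors, all genes of the supply list, the DEGs of each signalling list (at most 4 each) and the 2 nearest profiles of each receptor among genes with a mean count of at least 100. Region markers, *Adar*, *Adarb1* and the genes overlapping *Htr1b* and *Htr2b* are named besides, chosen after their values were seen. A nearest profile is not reported here for 1 of these places.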

Additional observations from a re-analysis of the deposited data

How the results depend on the processing

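The count of receptor genes past the thresholds was 0 in the fit of all 6 libraries and in all 8 alternatives that keep every library, and it lay between 0 and 2 when 1 library was left out (2 without control 1, 1 without control 2, 1 without OE C). The count of the downstream and other pathway genes was 10, and between 4 (without OE B) and 15 (without control 1). Of all genes tested, 2675 passed, 1563 after the GC content correction, and between 1430 (without OE B) and 3508 (without OE C) with a library left out. The share of higher genes among them moved from 41.6% to 52.2% without control 3. At an adjusted *P* under 0.05 there were 6 genes with edgeR, 450 with DESeq2, 4 with limma-voom, 13 without control 3 and 0 without OE B.

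In the order by level per kb, all 10 places were kept by definition in the full groups, and with a library left out 5 to 10 of them were kept for controls and 5 to 8 for OE libraries. Of 434 comparisons of single genes with their value in the full fit, 376 kept direction and side of the thresholds, 13 passed newly, 22 were lost and 23 changed sign. With limma-voom *Htr1d* was at -0.45 and *Htr1f* at 0.070. With the GC content correction *Htr1f* was at 0.24, *Htr6* at -0.090 and *Slc22a3* at -0.0071. With 1 library left out, Log2FC ranged from -0.30 to 0.44 for *Htr1f*, from -0.53 to 0.26 for *Htr3a*, from -0.069 to 0.24 for *Htr2a*, from -0.065 to 0.72 for *Htr6*, from -0.50 to 1.00 for *Htr1d*, from -0.57 to 0.0025 for *Gch1*, from -0.20 to 0.29 for *Slc22a3*, from -0.59 to 0.33 for *Slc29a4* and from -0.12 to 0.0051 for *Aldh2*. The cause of these shifts was not tested. No paired analysis was possible because the groups share only 1 mouse number in the labels and the columns of the OE libraries do not give the mouse. With 3 libraries per group, a receptor with the median standard error of 0.32 has an interval several times as wide as the fold change threshold. What depth contributes to these intervals was not tested.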
